A study of Mus musculus with 9 samples.

Results

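The 10 genes described here are Tcf7 and Lef1, which encode nuclear partners of beta-catenin, and 8 genes known as Wnt targets, namely Axin2, Lgr5, Tbx3, Nkd1, Notum, Rnf43, Glul and Oat. They were taken by gene symbol from 52144 symbols in the expression tables of 9 tumors, and all 10 were found in every tumor. The members were chosen from a list drawn up with earlier results of these tumors known, so their levels and differences are given as a description and without a test. Hepa1-6 cells, a mouse hepatoma line, were grown as tumors in the liver of C57BL/6 mice, and PBS or anti-PD-1 antibody, which blocks an inhibitory receptor of T cells, was injected into the peritoneum 5 times at intervals of 4 days. Bulk RNA of 9 tumors was sequenced, each from another mouse, 3 of them given PBS, 3 nonresponsive to the antibody and 3 responsive to it. All tumors shared the cell line and the mouse strain. The responsive tumors were the smallest and the nonresponsive tumors the largest of the antibody-treated ones, with intermediate tumors set aside, so that both groups were defined by outcome. Levels are given in FPKM, which counts mapped fragments relative to transcript length and to the total mapped in that tumor, and group values are mean ± SD over 3 tumors.

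In canonical Wnt signaling, a Wnt ligand bound to a Frizzled receptor and its coreceptor prevents the destruction of beta-catenin, which then enters the nucleus and binds TCF and LEF proteins on target genes. Axin2, Nkd1, Notum and Rnf43 are induced by the pathway and restrain it in return. In normal liver the pathway is active in hepatocytes around the central vein, which express Glul and Oat, while in lymphocytes Tcf7, which encodes TCF-1, is best known as a marker of naive and stem-like T cells.

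Across the 9 tumors Tcf7 varied together with Axin2, Lgr5 and Nkd1, and its level exceeded that of Cd3e, a chain of the T cell receptor complex, in 7 of 9 tumors. Tcf7, Axin2, Lgr5, Nkd1 and Rnf43 did not separate responsive from nonresponsive tumors. Glul and Oat were higher in each of the 3 responsive tumors than in each of the 6 others. Lef1 followed neither pattern.

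Promoter windows were read to show what the genes that varied together have in their proximal sequence. RefSeq sequence of build GRCm38.p6 was at hand for 7 of the 10 members, with 12 start sites in all, and each window holds the 250 bases before the start. The 4 windows printed are those of Axin2 and Nkd1, which followed Tcf7, of Lef1, which did not, and of Sp5, a Wnt-induced transcription factor outside the member list whose level was among the 5 closest to Axin2. Capitals mark the letters CTTTG or their reverse complement CAAAG, the core that TCF and LEF proteins bind. The Axin2 window is chr11:108920099-108920348 on the + strand, that of Nkd1 chr8:88527383-88527632 on the + strand, that of Lef1 chr3:131110047-131110296 on the + strand, and that of Sp5 chr2:70474673-70474922 on the + strand.
Axin2: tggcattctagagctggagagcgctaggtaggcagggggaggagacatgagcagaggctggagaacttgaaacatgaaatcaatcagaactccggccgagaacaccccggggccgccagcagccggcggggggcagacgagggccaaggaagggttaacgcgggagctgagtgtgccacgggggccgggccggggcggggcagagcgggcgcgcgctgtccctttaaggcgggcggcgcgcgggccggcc
Nkd1: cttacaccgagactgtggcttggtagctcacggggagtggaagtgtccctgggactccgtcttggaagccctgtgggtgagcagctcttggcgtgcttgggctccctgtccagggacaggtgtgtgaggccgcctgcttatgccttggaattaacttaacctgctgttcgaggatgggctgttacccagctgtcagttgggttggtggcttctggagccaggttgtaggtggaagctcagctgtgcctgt
Lef1: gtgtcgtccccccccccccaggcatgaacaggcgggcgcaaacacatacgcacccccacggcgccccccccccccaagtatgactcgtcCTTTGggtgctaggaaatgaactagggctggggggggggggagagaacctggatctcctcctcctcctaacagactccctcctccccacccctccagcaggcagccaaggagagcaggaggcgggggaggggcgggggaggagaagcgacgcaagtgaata
Sp5: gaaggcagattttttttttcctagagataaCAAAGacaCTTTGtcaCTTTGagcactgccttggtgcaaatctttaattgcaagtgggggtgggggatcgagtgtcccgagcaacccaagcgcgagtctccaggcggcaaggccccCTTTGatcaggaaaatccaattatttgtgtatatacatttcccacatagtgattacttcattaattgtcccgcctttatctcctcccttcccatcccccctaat

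The core was present in 4 of the 12 member windows, all of them windows of Lef1, and in 48.6% of all 32851 promoter windows of the same length. The windows of Axin2, Nkd1, Tcf7, Rnf43, Glul and Oat held none. The longer forms CTTTGAT and CTTTGAA, searched on both strands and each containing the core, were found in 0 of the 12 member windows, once in the Sp5 window and in 7.48% of all windows. These counts describe these letters in these windows only, and more distant sequence was not searched.

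Of the 2 nuclear factors, Tcf7 was the more variable between tumors. Its level was 158, 80.7 and 135 FPKM in PBS tumors 1, 2 and 3. In nonresponsive tumors 1, 2 and 3 it was 7.40, 80.5 and 126 FPKM, and in responsive tumors 1, 2 and 3 it was 14.3, 110 and 43.6 FPKM. Nonresponsive tumor 1 and responsive tumor 1 were the lowest of the 9, and the groups overlapped. The order of the group means was PBS (125 ± 39.8), nonresponsive (71.4 ± 59.9) and responsive (55.9 ± 48.9 FPKM, each n = 3), the first 2 differing by more than the PBS SD but less than the nonresponsive SD, and the last 2 by less than either SD. Over the 9 tumors the level spanned 21.4-fold.

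Lef1 was low and steady by comparison, with 2.17, 3.69 and 2.22 FPKM in PBS tumors 1, 2 and 3. It stood at 2.01, 1.90 and 2.15 FPKM in nonresponsive tumors and at 3.03, 4.14 and 2.62 FPKM in responsive tumors, in the same order. All 3 nonresponsive tumors were below all PBS and all responsive tumors, and PBS and responsive tumors overlapped. The authors' intervals were wide beside these gaps, as with 0.674 to 3.63 FPKM in nonresponsive tumor 3 and 1.27 to 3.97 FPKM in responsive tumor 3. The order was responsive (3.26 ± 0.788), PBS (2.69 ± 0.865) and nonresponsive (2.02 ± 0.126 FPKM). Responsive and PBS means differed by less than their SDs. Per length, Tcf7 was 3.69 to 73.0 times as abundant as Lef1, with a median of 26.5.

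Axin2, a scaffold of the beta-catenin destruction complex and one of the most general Wnt targets, was measured at 77.3, 45.5 and 46.0 FPKM in PBS tumors. It was at 2.34, 29.0 and 57.1 FPKM in nonresponsive tumors and at 2.42, 83.3 and 19.5 FPKM in responsive tumors. The lowest tumors were again nonresponsive tumor 1 and responsive tumor 1, while the highest was responsive tumor 2. The range within the responsive group thus covered that of the other 2 groups nearly whole. The authors' interval was wide for 2 of these estimates, 0 to 1292 FPKM in PBS tumor 2 and 0 to 212 FPKM in responsive tumor 3.

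Lgr5 encodes a receptor for R-spondins and marks stem cells of several epithelia and pericentral hepatocytes. Its level was 50.9, 26.1 and 27.3 FPKM in PBS tumors, 2.10, 20.4 and 26.2 FPKM in nonresponsive tumors, and 0.889, 36.7 and 8.88 FPKM in responsive tumors. The same 2 tumors were lowest, and the range over all tumors was 57.2-fold, the widest of the 10 members. Tbx3, a T-box transcription factor induced by the pathway in liver cells, was at 17.6, 16.5 and 14.2 FPKM in PBS tumors, 5.55, 5.80 and 10.2 FPKM in nonresponsive tumors, and 6.42, 31.6 and 8.26 FPKM in responsive tumors. All 3 nonresponsive tumors lay below all 3 PBS tumors in Tbx3, whereas the responsive group held both the highest tumor and 1 of the 3 lowest.

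The feedback inhibitors had the same 2 tumors at the bottom. Nkd1, which binds Dishevelled, had 184, 96.0 and 111 FPKM in PBS tumors, 6.17, 39.6 and 117 FPKM in nonresponsive tumors, and 4.48, 192 and 25.3 FPKM in responsive tumors. The value of PBS tumor 1 was shared, because there the entry also named Cyld, a neighbouring gene. Notum, a secreted enzyme that removes the lipid from Wnt ligands, had 55.3, 68.1 and 39.5 FPKM in PBS tumors, 3.38, 13.1 and 35.2 FPKM in nonresponsive tumors, and 6.85, 174 and 17.5 FPKM in responsive tumors. Responsive tumor 2 was the highest of all tumors in both genes, and all 3 nonresponsive tumors were below all 3 PBS tumors in Notum.

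Rnf43, a membrane ubiquitin ligase that clears Frizzled receptors, had 45.6, 21.6 and 142 FPKM in PBS tumors, 2.73, 9.30 and 20.8 FPKM in nonresponsive tumors, and 2.79, 40.2 and 11.0 FPKM in responsive tumors. Its level is uncertain, because the entry also named 1110028F11Rik in all tumors but nonresponsive tumor 2 and responsive tumor 1, and Supt4a as well in PBS tumor 3, the tumor with the highest value. With these genes joined into 1 locus in every tumor, the summed level was 101 to 157 FPKM in PBS, 93.5 to 111 FPKM in nonresponsive and 90.3 to 164 FPKM in responsive tumors. The joined levels overlapped between PBS and both other groups.

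The pericentral liver genes behaved differently. Glul encodes glutamine synthetase and was at 76.7, 159 and 109 FPKM in PBS tumors, 189, 140 and 82.0 FPKM in nonresponsive tumors, and 299, 229 and 280 FPKM in responsive tumors. The entry also named the microRNA gene Mir8114 in every tumor. The 3 responsive tumors were the 3 highest of the 9, PBS and nonresponsive tumors overlapped, and the group means were 269 ± 36.4 in responsive, 137 ± 53.6 in nonresponsive and 115 ± 41.2 FPKM in PBS tumors.

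Oat, the mitochondrial ornithine aminotransferase, was at 48.5, 69.8 and 56.9 FPKM in PBS tumors, 81.8, 82.1 and 47.1 FPKM in nonresponsive tumors, and 157, 86.7 and 116 FPKM in responsive tumors. Here too the responsive tumors were the 3 highest, the closest gap being 86.7 against 82.1 FPKM. Group means were 120 ± 35.1, 70.3 ± 20.1 and 58.4 ± 10.7 FPKM in responsive, nonresponsive and PBS tumors, and the last 2 differed by less than the nonresponsive SD.

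**Figure D1:**
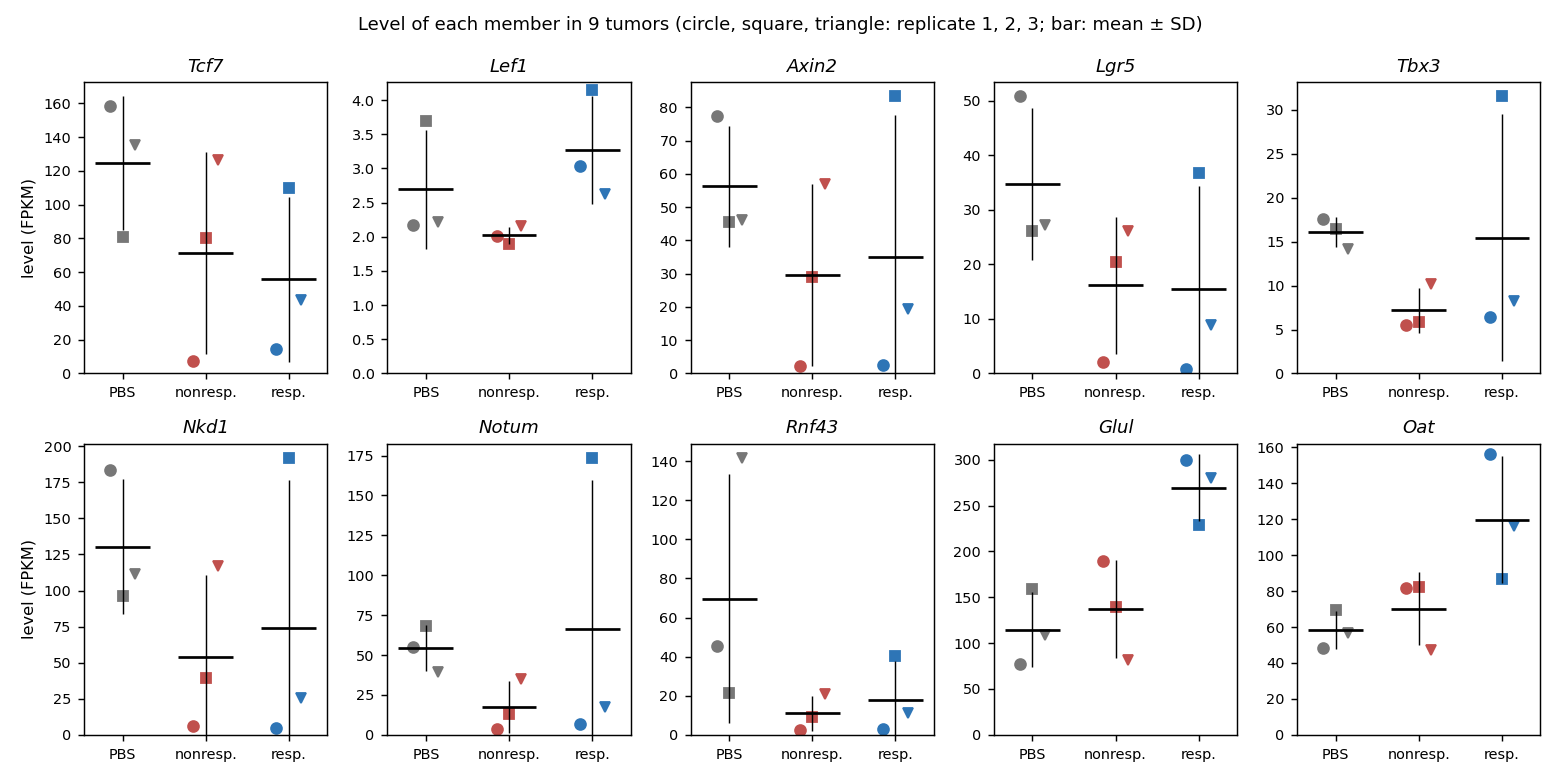
Level in FPKM (vertical axis, from 0, own scale per gene) of each of the 10 members in PBS, nonresponsive and responsive tumors, 1 point a tumor with replicates 1, 2 and 3 as circle, square and triangle, and lines for mean ± SD (n = 3, cut at 0). Nonresponsive tumor 1 and responsive tumor 1 lie near the bottom for Tcf7 (7.40 and 14.3 FPKM), Axin2 (2.34 and 2.42 FPKM) and Nkd1 (6.17 and 4.48 FPKM), and the 3 responsive tumors lie on top for Glul (229 to 299 FPKM) and Oat (86.7 to 157 FPKM).

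The tumors themselves differed in ways that bear on these levels. Relative depth, read from the spacing of low FPKM values, was 0.940 to 1.07 times that of PBS tumor 1, and 12533 to 13328 entries with a gene name reached 1 FPKM in a tumor. Entries that name no gene took 70.4 to 73.2% of the summed FPKM in nonresponsive, 21.0 to 55.1% in responsive and 19.2 to 81.5% in PBS tumors, and named entries summed to 765576 to 814452 FPKM in responsive against 651110 to 716227 FPKM in nonresponsive tumors. Correlations of log2 levels between tumors were 0.780 to 0.939. The part of these differences in the results was not tested.

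Responsive and nonresponsive tumors were compared to ask what accompanies response to the antibody. On the log2(FPKM + 1) scale, responsive minus nonresponsive was -0.07 (SE 1.22) for Tcf7, 0.01 (SE 1.51) for Axin2, -0.45 (SE 1.32) for Lgr5 and -0.10 (SE 1.57) for Nkd1. Tbx3 (0.72, SE 0.61), Notum (1.17, SE 1.32) and Rnf43 (0.39, SE 1.03) differed by less than 2 SE, and the Notum difference was -0.12 without responsive tumor 2. Lef1 (0.48, SE 0.21), Glul (1.04, SE 0.35) and Oat (0.76, SE 0.34) were higher in every responsive tumor than in every nonresponsive tumor. These 3 of the 10 members were the ones without overlap, a property of 10.5% of the 13826 genes tested. Because the members were chosen with these results known, nothing is read from that count, here or in the other comparisons. Without nonresponsive tumor 1 the difference was -1.27 for Tcf7 and -1.21 for Axin2, and without responsive tumor 1 it was 0.67 and 1.21, so no direction is given for either. Of all genes 0.116% had an adjusted p under 0.05 by limma with Benjamini-Hochberg adjustment and 5.49% an unadjusted p under 0.05. Of the latter genes 560 were higher and 199 lower. After scaling to the sum of named entries, which moved the median of all genes from -0.07 to -0.24, the split was 301 to 565. Axin2, at -0.18, then changed sign, and the other 9 members kept theirs.

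Against PBS tumors, responsive tumors had lower means of Tcf7 and of most Wnt-induced members, with overlap in each. The differences were -1.52 (SE 0.75) for Tcf7, -1.62 (SE 1.15) for Axin2, -1.94 (SE 1.09) for Lgr5 and -2.06 (SE 1.28) for Nkd1, or -1.38 for Nkd1 joined with Cyld. Rnf43 differed by -2.11 (SE 1.06) as its entries stand and by -0.01 once joined with its neighbours, so no direction is given for it. Without responsive tumor 1 the differences were -0.78 for Tcf7, -0.42 for Axin2, -0.82 for Lgr5 and -0.83 for Nkd1. Tbx3 (-0.38, SE 0.58), Notum (-0.88, SE 1.14) and Lef1 (0.22, SE 0.25) differed by less than their SE, and Tbx3 (0.03) and Notum (0.08) changed sign without that tumor. Glul (1.28, SE 0.31) and Oat (1.00, SE 0.28) were the 2 members whose groups did not overlap, as 28% of the 13835 genes tested did not, and nothing is read from that count. Of all genes 0.231% had an adjusted p under 0.05 by limma and 17.3% an unadjusted p under 0.05. The 2388 genes behind the second share split into 1174 higher and 1214 lower, or 912 and 2172 after scaling to named entries, with the median of all genes moved from -0.11 to -0.24.

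Between nonresponsive and PBS tumors several members had groups that did not overlap. Tbx3 (-1.10, SE 0.26), Notum (-2.05, SE 0.77), Rnf43 (-2.50, SE 0.90) and Lef1 (-0.27, SE 0.23) were lower in every nonresponsive tumor than in every PBS tumor, although for Rnf43 the joined locus gave -0.35 and overlapping groups. Of the 13787 genes tested 8.21% had groups that did not overlap, and nothing is read from the count of 4 members. Tcf7 (-1.45, SE 1.05), Axin2 (-1.63, SE 1.07), Lgr5 (-1.49, SE 0.87) and Nkd1 (-1.96, SE 1.02) had lower means with overlap, and without nonresponsive tumor 1 the differences were -0.25 for Tcf7, -0.41 for Axin2, -0.50 for Lgr5 and -0.87 for Nkd1. That of Notum was then -1.26. Glul (0.23, SE 0.41) and Oat (0.24, SE 0.29) differed by less than their SE, and Glul changed sign without nonresponsive tumor 1 (-0.04). Of all genes 0.0798% had an adjusted p under 0.05 by limma and 3.22% an unadjusted p under 0.05. The 444 genes behind the second share split into 208 higher and 236 lower, or 239 and 169 after scaling to named entries. The 2 comparisons with PBS use the same PBS tumors and are not independent of each other.

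**Figure D2:**
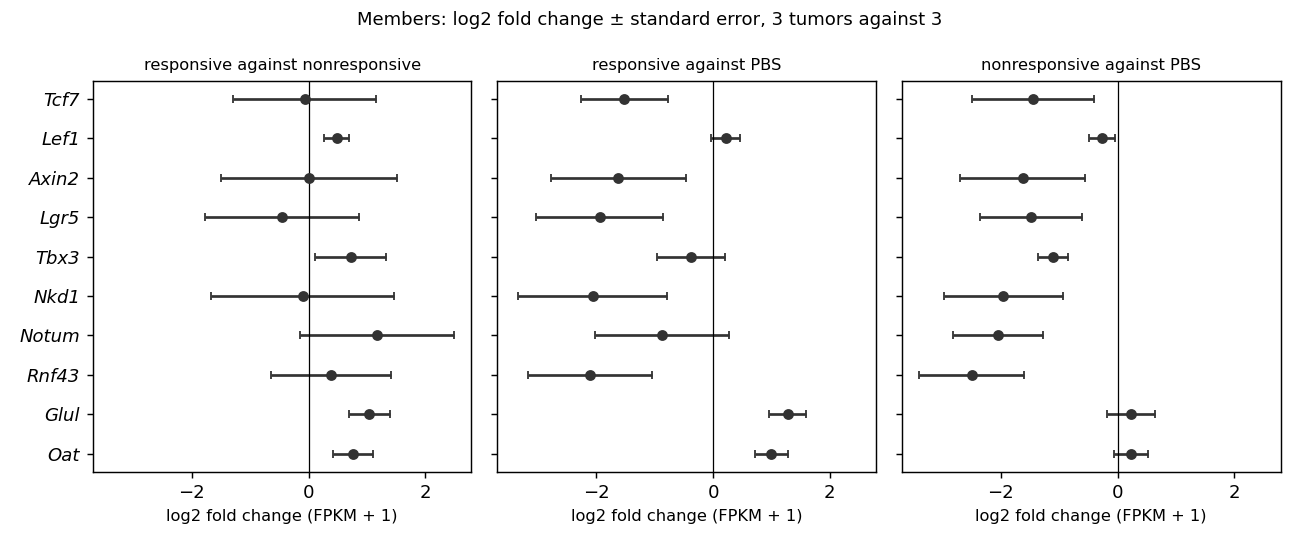
Log2 fold change of the 10 members (points, horizontal axis, on log2(FPKM + 1)) with its standard error (bars) in the 3 comparisons of 3 tumors against 3. Glul and Oat lie to the right of 0 for responsive against nonresponsive (1.04 and 0.76) and against PBS (1.28 and 1.00), while the bars of Tcf7 and Axin2 span more than 1 unit to each side in the first panel.

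Relating Tcf7 to the other members over the 9 tumors gave Pearson's r on log2(FPKM + 1) of 0.97 for Axin2 (Spearman's rho 0.88), 0.95 for Lgr5 (rho 0.93) and 0.95 for Nkd1 (rho 0.87). For Rnf43 r was 0.86 (rho 0.92), for Notum 0.83 (rho 0.73) and for Tbx3 0.67 (rho 0.77). Lef1, the other nuclear factor, gave 0.07 (rho 0.07). Glul and Oat were related inversely, with r of -0.65 (rho -0.78) and -0.68 (rho -0.72). All points share the scaling of their tumor, and no p is given for members.

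High correlations with Tcf7 were common in these tumors, which sets the scale for the members. The r of Axin2 stood at the 98.7th percentile of the 14450 other genes, those of Lgr5 and Nkd1 at the 96.6th and 96.0th, that of Rnf43 at the 84.7th, that of Notum at the 81.2nd and that of Tbx3 at the 70.5th. The 2 tumors farthest from the median of Tcf7 were nonresponsive tumor 1 and responsive tumor 1. Without them r was 0.91 for Lgr5, 0.87 for Nkd1 and 0.85 for Axin2, but 0.47 for both Notum and Tbx3. The relation of the last 2 genes therefore rests in large part on those tumors, whereas Glul (-0.80) and Oat (-0.88) were related more tightly without them.

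Removing the mean of each group, which leaves the differences between tumors treated alike, gave r of 0.96 for Axin2, 0.95 for Lgr5, 0.93 for Nkd1, -0.76 for Glul and -0.76 for Oat. Leaving out any 1 tumor kept Axin2 between 0.96 and 0.98 and Lef1 between -0.25 and 0.21. For Rnf43 joined to its neighbours r was 0.59. Among the members themselves the closest pairs were Axin2 and Nkd1 (r = 0.99), Axin2 and Lgr5 (0.98) and Tbx3 and Notum (0.95), and Glul and Oat formed a pair of their own (0.95). Lef1 was nearest to Tbx3 (0.63) and Notum (0.57).

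**Figure D3:**
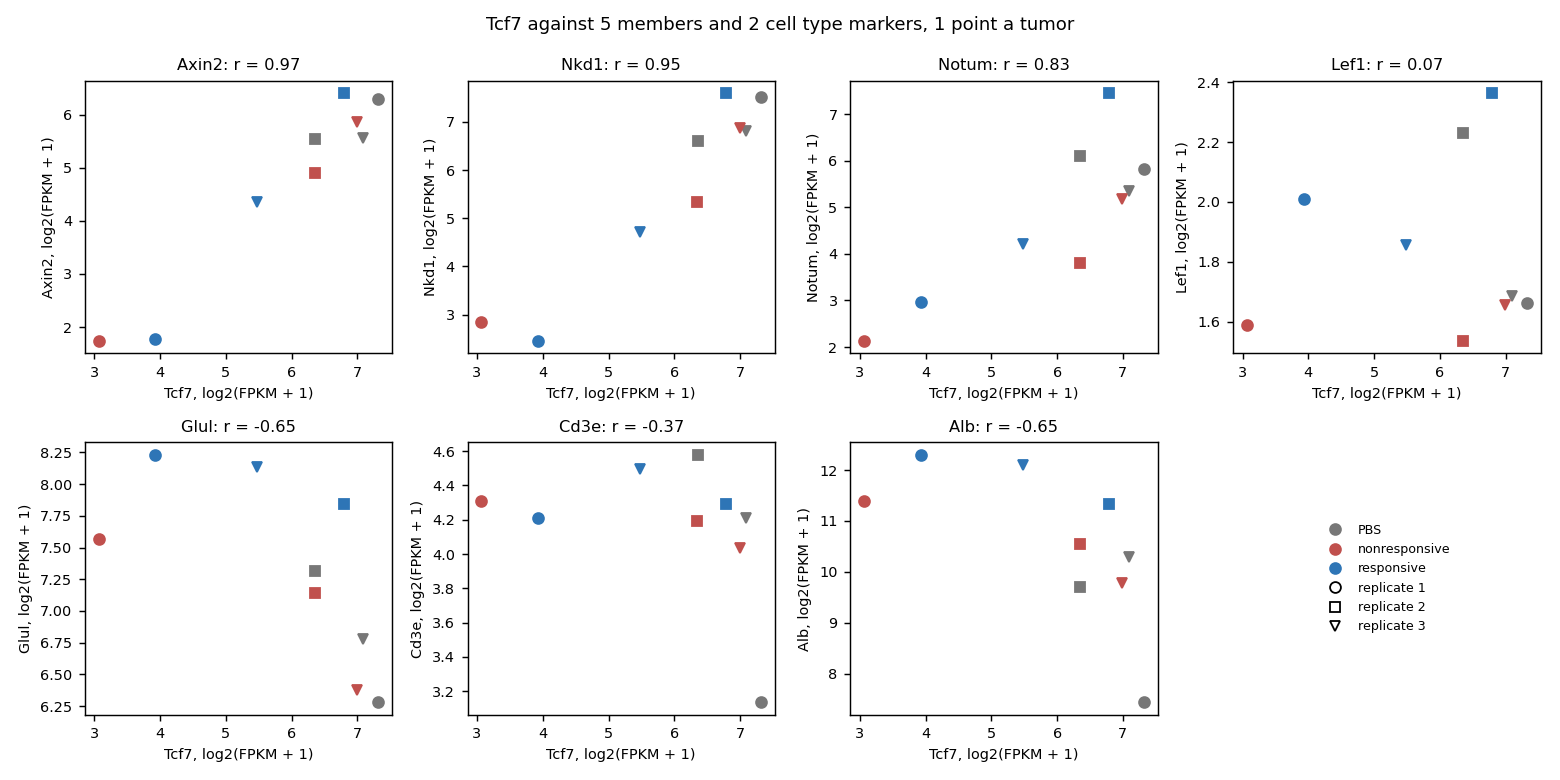
Levels of Axin2, Nkd1, Notum, Lef1 and Glul and of the T cell marker Cd3e and the hepatocyte marker Alb (vertical axes) against Tcf7 (horizontal axes), all as log2(FPKM + 1), with 1 point a tumor, the group shown by color and the replicate by marker. Axin2 follows Tcf7 (r = 0.97), while Lef1 (r = 0.07) and Cd3e (r = -0.37) do not.

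Genes outside the member list were set against Tcf7 by exact permutation over all pairings of the 9 tumors (two-sided) with adjustment over all 14450 genes. The listed genes too were chosen with earlier results of these tumors known. Their p-values, here and in the group comparisons below, therefore describe them and are no independent support. At an adjusted p under 0.05, 24.2% of all genes were positively and 7.73% negatively correlated with Tcf7. Without the 2 tumors farthest from its median, nonresponsive tumor 1 and responsive tumor 1, 0 of 13983 genes passed by exact permutation of the other 7 tumors (smallest adjusted p = 0.051, with 3780 genes at an unadjusted p under 0.05). Every call against Tcf7 named below was thus lost without both of those tumors. A test of 7 tumors has fewer pairings and less power, so the loss alone cannot show how far the relations rest on those 2. Among 67 Wnt pathway genes tested, 19 passed with a positive r (28.4%) and 8 with a negative r (11.9%), shares near those of all genes. No result about the pathway as a whole is read from these shares, and the genes named next are all of those that passed.

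Among other Wnt targets, Myc, a driver of growth, had an r of 0.99 with Tcf7 (exact permutation, adjusted p = 0.0017), Sp5 0.98 (adjusted p = 0.0022), the cyclin Ccnd1 0.97 (adjusted p = 0.0021) and the receptor Tnfrsf19 0.97 (adjusted p = 0.0017). Sp5 was measured at 110, 51.4 and 70.9 FPKM in PBS tumors, 0.682, 27.5 and 53.8 FPKM in nonresponsive tumors, and 1.05, 94.6 and 19.8 FPKM in responsive tumors. Nonresponsive tumor 1 and responsive tumor 1 were thus the lowest here too. The remaining target that passed, the decoy receptor Bambi, ran the other way with an r of -0.84 (exact permutation, adjusted p = 0.0086).

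Of 12 ligand and secretion genes tested, 4 ligands passed with a positive r. They were Wnt7b (0.98), Wnt6 (0.97), Wnt10a (0.95) and Wnt5b (0.90), with adjusted p of 0.0016, 0.0056, 0.011 and 0.0073 by exact permutation. Wnt6 and Wnt10a, the most abundant of the list, are neighbours and shared 1 entry in some tumors, as in PBS tumors 2 and 3, which carry 159 and 214 FPKM for both. In the lowest tumors they stood at 1.09 and 0.371 FPKM (nonresponsive tumor 1) and at 0.819 and 0.129 FPKM (responsive tumor 1). Rspo3, the R-spondin of liver endothelium and stroma, had an r of -0.84 (adjusted p = 0.012), and Porcn, which lipidates Wnt ligands, -0.77 (adjusted p = 0.049), both by exact permutation.

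Of 14 receptor genes, Fzd6 (0.95), Lrp6 (0.93), Fzd5 (0.90), Lgr6 (0.88) and Ryk (0.84) passed with a positive r, and Fzd8 (-0.81) and Fzd1 (-0.77) with a negative r. Ryk and Lrp5, the most abundant receptor genes, lay between 21.0 and 39.1 FPKM and between 17.2 and 24.7 FPKM. Of 21 intracellular genes, the coactivator Bcl9 (0.91), Amer1 (0.84), the ubiquitin ligase subunit Btrc (0.83), Apc (0.81) of the destruction complex and the corepressor Tle4 (0.78) passed with a positive r and Dvl1 (-0.86) with a negative r. Of 10 inhibitors, Znrf3, the relative of Rnf43, passed with an r of 0.88, but its entry also named Kremen1 in several tumors, and Nkd2 (-0.84) and Dkk3 (-0.82) passed with a negative r. Ctnnb1, which encodes beta-catenin itself, ranged only from 114 to 176 FPKM over the 9 tumors, and Csnk1a1, the most abundant gene of the intracellular list, from 76.6 to 206 FPKM.

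**Figure D4:**
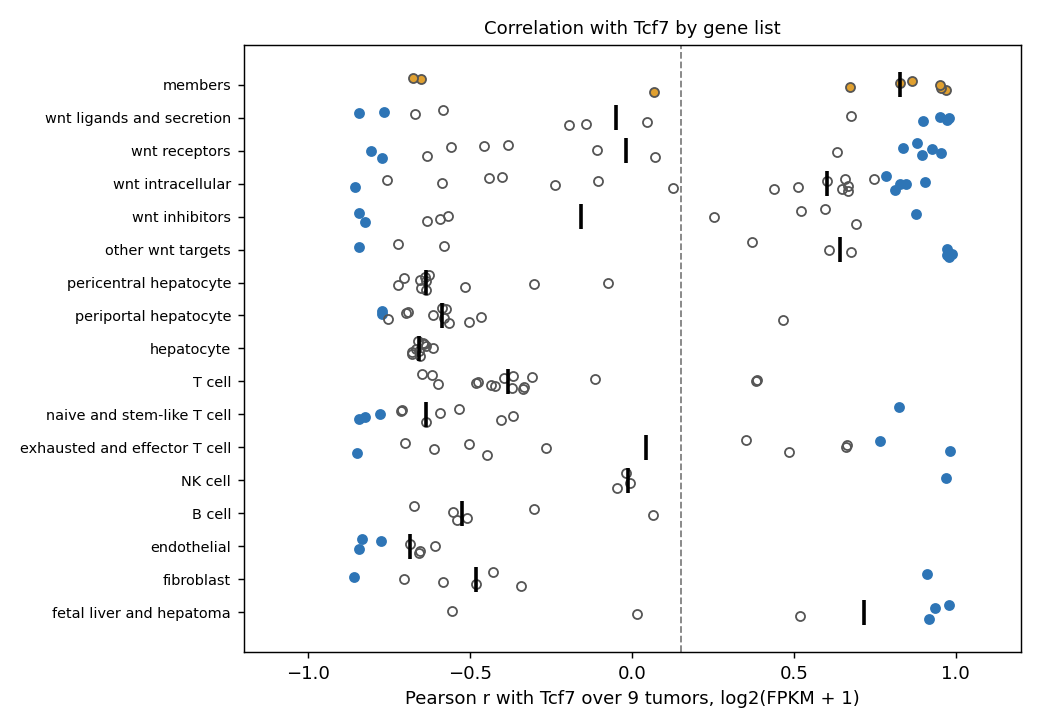
Pearson's r with Tcf7 over the 9 tumors (horizontal axis) for the 9 other members (orange, not tested) and for the tested genes of 16 lists (rows), filled blue where the adjusted p by exact permutation was under 0.05, with a vertical bar at each list's median and a dashed line at the median of all genes (0.15). T cell genes center at -0.38 and hepatocyte genes at -0.66, while the other Wnt targets center at 0.64.

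Whether Tcf7 followed T cells was asked with 16 T cell genes, and 0 of 16 passed the exact permutation test after adjustment, with 0 at an unadjusted p under 0.05. Their median r was -0.38, and Cd3e gave -0.37 (exact permutation p = 0.31, adjusted p = 0.42). Cd3g and Trac, the most abundant of the list, lay between 8.28 and 39.0 FPKM and between 25.4 and 62.5 FPKM over the 9 tumors, and the summed level of the list was 90.2 to 279 FPKM in PBS, 167 to 208 FPKM in nonresponsive and 238 to 313 FPKM in responsive tumors. The ratio of Tcf7 to Cd3e, both per length, was 20.3, 3.53 and 7.75 in PBS tumors. It was 0.394, 4.65 and 8.21 in nonresponsive tumors and 0.816, 5.90 and 2.02 in responsive tumors. Only in nonresponsive tumor 1 and responsive tumor 1 was Tcf7 below Cd3e. Lef1 was 0.107 to 0.278 times Cd3e.

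Genes of naive and stem-like T cells mostly ran against Tcf7, with a median r of -0.64, as did genes of most other host cells. Medians were -0.66 for hepatocyte, -0.64 for pericentral, -0.59 for periportal, -0.69 for endothelial, -0.53 for B cell and -0.48 for fibroblast genes. Those of NK cell genes (-0.01) and of effector and exhaustion genes (0.04) lay near 0. Of 11 naive and stem-like genes tested, 1 passed with a positive r (Xcl1, a chemokine, 0.83). By exact permutation with adjustment 3 passed with a negative r, namely Il7r (-0.85), Slamf6 (-0.83) and Id3 (-0.78). Id3 and Klf2, the most abundant of this list, spanned 48.7 to 134 FPKM and 13.0 to 48.2 FPKM. Lef1 showed another relation to T cell genes, but not to them alone. Positive r with Lef1 was also found for 10 of 10 hepatocyte, 6 of 6 B cell, 12 of 13 periportal and 10 of 11 pericentral genes. Endothelial genes had it in 3 of 7 and fibroblast genes in 1 of 7. All 16 T cell genes had a positive r with Lef1, with a median of 0.53 beside a median near 0 over all genes. The highest were Cd8b1 (0.73) and Cd3d (0.69). None passed adjustment by exact permutation (adjusted p = 1.00 for both), 2 of 16 had an unadjusted p under 0.05, and of all genes 0% were called in the positive and 0% in the negative direction, with 251 positive and 209 negative at an unadjusted p under 0.05.

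Glul was then set against the same lists, since it marks pericentral hepatocytes. Of all genes 7.95% were positively and 6.75% negatively correlated with Glul at an adjusted p under 0.05 by exact permutation. Of 11 pericentral genes 8 passed with a positive r, as did 10 of 13 periportal genes and 8 of 10 hepatocyte genes in general. Cyp2e1 (0.91, adjusted p = 0.0060), Cyp1a2 (0.90, adjusted p = 0.0060) and Slc1a2 (0.93, adjusted p = 0.0062) are pericentral, while G6pc (0.93, adjusted p = 0.012) and Cps1 (0.89, adjusted p = 0.0098) belong to the periportal zone, where the pathway is low. Glul moved with both zones, and also with 9 of 16 T cell genes and 4 of 6 B cell genes.

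The levels of hepatocyte genes differed between the groups in the same direction as Glul and Oat. The 10 hepatocyte genes together had 575 to 6548 FPKM in PBS, 4212 to 13867 FPKM in nonresponsive and 11178 to 23767 FPKM in responsive tumors, and all of them were above 0 in every tumor. Alb, the gene of albumin, was at 173, 835 and 1259 FPKM in PBS tumors, 2678, 1490 and 885 FPKM in nonresponsive tumors, and 5041, 2576 and 4396 FPKM in responsive tumors. The pericentral list summed to 58.1 to 561, 322 to 1163 and 1284 to 2616 FPKM in the same order of groups, and the periportal list to 95.5 to 491, 276 to 970 and 416 to 1009 FPKM. Of single liver genes, Rgn was at 3.86 to 363 FPKM over the 9 tumors, Ass1 of the urea cycle at 17.2 to 242 FPKM and Apoa2, which shared its entry with Nr1i3 in some tumors, at 89.2 to 5326 FPKM. Arg1, the last enzyme of the urea cycle, was highest in nonresponsive tumor 1 (676 FPKM) and lowest in PBS tumor 1 (68.9 FPKM). Expressed against Alb, Glul was 44.4, 19 and 8.66% in PBS tumors, 7.06, 9.39 and 9.27% in nonresponsive tumors and 5.94, 8.89 and 6.36% in responsive tumors. The ratio was highest in PBS tumor 1 and lowest in responsive tumor 1. It depends on Alb, which ranged from 173 to 5041 FPKM, as well as on Glul, which ranged from 76.7 to 299 FPKM. The part of liver tissue in the levels of Glul and Oat was not tested, and RNA of whole tumors cannot tell fewer cells of a type from less RNA per cell.

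In the comparison of responsive with nonresponsive tumors by limma, 0 of 167 listed genes tested had an adjusted p under 0.05, and 29 were higher and 6 lower at an unadjusted p under 0.05. Of the 65 Wnt pathway genes among them 1 was higher and 3 lower at that level. Lgr4, a receptor for R-spondins, was higher in responsive tumors (log2 fold change 0.57, unadjusted p = 0.025, adjusted p = 0.89), and Sfrp4, a secreted Frizzled-like inhibitor, lower (-2.42, unadjusted p = 0.0030, adjusted p = 0.79). Sfrp4 was at 1.83, 9.15 and 6.44 FPKM in nonresponsive tumors and at 0.303, 0.0637 and 0 FPKM in responsive tumors, but also at 0.127 and 0.0627 FPKM in PBS tumors 2 and 3 against 11.2 FPKM in PBS tumor 1. The ligand Wnt5a (-0.55, adjusted p = 0.89) and the receptor Fzd2 (-0.60, adjusted p = 0.89) were the others.

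Medians of the Wnt lists were -0.33 for ligands, -0.18 for receptors, -0.19 for intracellular genes, -0.32 for inhibitors and -0.12 for other targets, beside -0.07 for all genes. Pericentral genes had a median of 1.39 with 8 of 11 higher at an unadjusted p under 0.05, led by Cyp2a5 (2.00, adjusted p = 0.52) and Cyp2e1 (1.67). Periportal genes had a median of 1.28 with 6 of 13 higher, led by G6pc (2.30), Cyp2f2 (1.98) and Cps1 (1.45), and hepatocyte genes a median of 1.34 with 3 of 10 higher, namely Apob (1.84), Alb (1.34) and Hnf4a (1.05). T cell genes had a median of 0.44 with 5 of 16 higher, with Cd2 (0.69), Zap70 (0.65) and Cd3d (0.64) at the top, and B cell genes 1.68 with 5 of 6 higher, led by Cd79a (3.41) and Ms4a1 (1.75). Of the effector and exhaustion genes Pdcd1, the gene of PD-1, was higher (0.64) and the receptor Cd244a lower (-0.74).

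With PBS as the reference, 0 of 166 listed genes tested in responsive tumors had an adjusted p under 0.05 by limma, while 37 were higher and 6 lower at an unadjusted p under 0.05. Of 63 Wnt pathway genes 2 were higher, Fzd8 (0.85) and Lgr4 (0.55), and 5 lower. The latter were the inhibitor Dkk2 (-1.75), Fzd6 (-1.22), the ligand Wnt11 (-0.98), the target Cd44 (-0.82) and Btrc (-0.68), each with an adjusted p of 0.28. Cd44, an adhesion receptor and the most abundant of the other targets, was at 152, 157 and 134 FPKM in PBS tumors and at 60.4, 92.4 and 103 FPKM in responsive tumors. Its 3 nonresponsive tumors (95.1, 107 and 117 FPKM) also stood below all PBS tumors. The other targets had a median of -0.82 beside -0.11 for all genes, and 10 of 11 pericentral genes were higher at an unadjusted p under 0.05, with a median of 2.51, among them Rgn (3.01) and Gulo (2.87), which encodes the last enzyme of vitamin C synthesis. Of all 13835 genes 1174 were higher at that level, and the rise was not particular to the pericentral list. All periportal genes tested but Arg1 and Sdsl were higher at the same level, among them Hsd17b6 (3.39). So were all hepatocyte genes tested but Hpx, among them Ttr (3.24), which encodes transthyretin, and Fgb (3.07), a fibrinogen chain. Higher as well were the T cell receptor adaptor Lat (1.05) and the exhaustion factor Tox (0.80). Tigit, of the same list as Tox, was lower at that level (-2.12), although its entry also named other genes in some tumors.

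In nonresponsive against PBS tumors 0 of 165 listed genes tested had an adjusted p under 0.05 by limma, while 7 were higher and 4 lower at an unadjusted p under 0.05. Of these 11, 8 were Wnt pathway genes of 64 tested, beside 3.22% of all genes at that level. The lists were chosen with earlier results of these tumors known, so nothing is read from that count. The secreted inhibitors Sfrp2 (2.39) and Sfrp1 (1.71) were higher and the membrane inhibitors Znrf3 (-2.10) and Kremen1 (-0.75) lower, each with an adjusted p of 0.72. Sfrp2 was at 4.91, 5.15 and 7.85 FPKM in PBS tumors and at 51.2, 69.4 and 11.6 FPKM in nonresponsive tumors. Znrf3 and Kremen1 shared 1 entry in all 3 PBS tumors (22.1, 18.5 and 13.5 FPKM) and had entries of their own in nonresponsive tumors, so their differences partly compare unlike entries. The Eph receptors Ephb2 (0.93) and Ephb3 (0.80) were higher, and Cd44 (-0.47) and Btrc (-0.57) lower. The vasopressin receptor gene Avpr1a (0.48) of the pericentral list and Hal (0.87), the histidine-degrading enzyme of the periportal list, were also higher, each with an adjusted p of 0.72.

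Lists of other cells complete the picture of what the tumors held. Fibroblast genes were led by Dcn (498 to 1202 FPKM) and Col3a1 (392 to 1400 FPKM), and endothelial genes by Pecam1 (23.8 to 62.7 FPKM) and Cdh5 (19.9 to 45.2 FPKM). Against Tcf7, 3 of 7 endothelial genes passed with a negative r by exact permutation with adjustment, Kdr (-0.84), Oit3 (-0.83) and Clec4g (-0.77), and of 7 fibroblast genes Pdgfrb (-0.86) passed with a negative and Dcn (0.91) with a positive r. Of the 6 genes tested in the list of fetal liver and hepatoma, Afp (0.92) and the proliferation genes Top2a (0.98) and Mki67 (0.94) passed with a positive r. Gpc3, H19 and Igf2 did not pass, and the lowest r of the list was -0.56. Afp, the fetal albumin relative by which hepatoma cells are recognized, was at 0.321 and 0.646 FPKM in nonresponsive tumor 1 and responsive tumor 1 and at 4.40 to 56.5 FPKM in the others. The 2 tumors with the least Tcf7 and Axin2 were therefore also the 2 with the least Afp. Of 12 effector and exhaustion genes 2 passed with a positive r, among them Tigit (0.98), and 1, Havcr2 (-0.85), with a negative r.

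By likeness of level over the 9 tumors (Pearson's r on log2(FPKM + 1), 12756 genes ranked), the genes nearest to Tcf7 were Gm17669 (0.997), Eif3e (0.994), Cdk4 (0.992), Mllt3 (0.992) and Rab3ip (0.992). Nearest to Axin2 were Fst (0.995), Kcnu1 (0.995), Sp5 (0.995), Tubb5 (0.994) and Cpe (0.993). Those nearest to Lef1 were Gal (0.96), Klk8 (0.94), Ngrn (0.94), Zfp369 (0.92) and Zkscan14 (0.90). Mllt3 spanned 2.22 to 260 FPKM and Fst 4.70 to 155 FPKM, while Gal stayed between 0.918 and 4.98 FPKM.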

How the data were processed

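Total RNA of 9 tumors, 1 per mouse, was sequenced from TruSeq libraries. The submitters' processing notes name Bowtie2 2.2.4, TopHat2 2.1.1 and build mm8, in no stated order, and the coordinates in the tables were not used. The authors deposited 1 Cufflinks table of FPKM per tumor, from transcripts assembled in that tumor, with an interval per value, and 1 Cuffdiff table of fold changes and p-values between groups, which was not used. The FPKM of a gene was summed over the rows that name its symbol, and symbols with identical values in all tumors counted as 1 of 25618 features above 0. Of all symbols, 19 that lie on several chromosomes and 13 with a failed estimate were left out. Read totals are not given, so that the depth behind a value is known only in relative terms. The limma p-values set group differences against the spread between mice of a group. The responsive and nonresponsive groups were picked by tumor size, so their spread is not that of all mice given the antibody. The permutation p-values of correlations treat all 9 tumors alike, whatever their group. Alternatives covered the pseudocount, filters, scaling, the samples fitted, a replicate block, joined loci, an ordinary linear model and each tumor left out.

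Differences between groups on the log2(FPKM + 1) scale were fitted by limma (version 3.58.1, R 4.3.3; two-sided, eBayes with trend) to the 6 tumors concerned and adjusted after Benjamini-Hochberg over all genes tested, namely those that reached 1 FPKM in 3 or more of the 6. A fold change on this scale understates that of low genes. All 10 members passed the filter, at which a member could also pass through 1 high group. Correlations used all 9 tumors, genes that reached 1 FPKM in 3 or more, and exact permutation over 362880 pairings in Python 3.11.15 with numpy 2.4.6. The steps were tested on simulated data. With 3 tumors against 3, the smallest two-sided p of an exact permutation test of group labels is 0.1, so that no such test was made for single genes.

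The members and the 16 lists (200 genes) were chosen with earlier results of these data known. Genes were named by a rule, namely all members, of each list the 2 genes with the highest mean FPKM and up to 3 with the largest difference at an unadjusted p under 0.05, and the 5 genes with the highest r with Tcf7, Lef1 and Axin2. Wnt pathway genes that passed against Tcf7 are all named, and other genes named for their r, the lists set against Lef1 and Glul and the promoter search were chosen after values were seen. Of the genes that the rule names, 2 are not reported here. Promoter sequences are from RefSeq, GRCm38.p6.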

Additional observations from a re-analysis of the deposited data

How the results depend on the processing

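Scaling to named entries and the signs that it turned are given with the comparisons. Of 267 values of the members' log2 fold changes under alternatives other than leaving out a tumor, 265 moved by less than 1 SD. The 2 exceptions were Rnf43 against PBS in joined loci, at -0.01 in responsive and -0.35 in nonresponsive tumors. Much of this count was fixed by design. Filters, a fit of all tumors together, the replicate block and the ordinary linear model leave a difference of group means unchanged. Joined loci changed only Nkd1 and Rnf43 among the members. Only the pseudocount and the scaling could move every member, so no steadiness is read from the count of 265. Lef1 was not tested at a filter of FPKM 5. With each tumor left out in turn, 180 of 180 values stayed within 1 SD, which was bound to happen. With 3 tumors a group, leaving out 1 cannot move the difference by as much as that SD. No steadiness is therefore read from that count, and Tcf7 in responsive against nonresponsive tumors ranged from -1.27 to 0.69. Signs turned with a tumor left out in responsive against nonresponsive for Tcf7 and Axin2 (3 of 6 tumors each), Nkd1 (4), Lgr5 and Rnf43 (2 each) and Notum (1), in responsive against PBS for Tbx3 and Notum (1 each), and in nonresponsive against PBS for Glul (2). No tumor left out reversed the sign of Lef1, Glul or Oat between responsive and nonresponsive tumors (0.34 to 0.59, 0.72 to 1.31 and 0.50 to 0.98).

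Genes called at an adjusted p under 0.05 were few, and their counts unsteady. The cause of the changes that follow was not tested. Responsive against nonresponsive gave 16, but 10 without a filter, 8 at FPKM 5, 7 by the ordinary linear model and 8 in joined loci. Responsive against PBS gave 32, but 16 with all 9 tumors in 1 fit, 20 by the ordinary linear model and 19 in joined loci, and nonresponsive against PBS 11, but 5 without a filter, 6 with all 9 tumors, 5 by the ordinary linear model and 5 in joined loci. Leaving out 1 tumor gave 0 to 32, 7 to 49 and 2 to 30 called genes in the same order. The 0 was without responsive tumor 3, where 332 genes had an unadjusted p under 0.05 by limma, and the highest counts were without nonresponsive tumor 1, PBS tumor 2 and nonresponsive tumor 3. Unadjusted calls in nonresponsive against PBS rose from 444 to 809 without a filter and to 1859 without nonresponsive tumor 3. Listed genes with an unadjusted p under 0.05 numbered 35, 43 and 11. They were 20 in the first comparison with all 9 tumors, 20 in the second by the ordinary linear model and 5 in the third at FPKM 5, and 14 to 43, 14 to 59 and 5 to 27 with a tumor left out.

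Groups share replicate numbers, but the numbers name different mice. Deviations of same-numbered responsive and nonresponsive tumors correlated at 0.48, 0.04 and -0.05, and those of differently numbered ones at -0.47 to 0.46. Same-numbered tumors correlated at -0.29, -0.32 and 0.14 between responsive and PBS, and at -0.40, -0.05 and -0.17 between nonresponsive and PBS. The tumors were therefore not treated as pairs, and whether same-numbered tumors were handled together was not tested. With the replicate block 1, 0 and 0 genes were called in the 3 comparisons, beside 934, 948 and 237 at an unadjusted p under 0.05 in limma and 16, 32 and 11 called without the block, and 41, 19 and 7 listed genes had an unadjusted p under 0.05.

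Genes correlated with Tcf7 numbered 4616, between 3148 (without responsive tumor 1) and 4938 (without nonresponsive tumor 2) with a tumor left out, and 0 without the 2 tumors farthest from its median, where the smallest adjusted p that exact permutation of 7 tumors gave was 0.051 and 3780 genes had an unadjusted p under 0.05. With 3 tumors a group, the standard errors of the members reached 1.57 on the log2 scale. For the most variable of them a difference of that size would equal only 1 SE, so that larger differences could also go undetected.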

Other observations

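Tigit, a checkpoint receptor of lymphocytes, was listed at 155, 77.1 and 145 FPKM in PBS tumors, 6.16, 68.1 and 165 FPKM in nonresponsive tumors and 9.21, 67.9 and 29.9 FPKM in responsive tumors. These levels followed Tcf7 (r = 0.98, exact permutation over all pairings of the 9 tumors, adjusted p = 0.0021) and not Cd3e, which stayed between 7.79 and 22.9 FPKM, and the entry also named the predicted genes Gm49734 and Gm49735 in some tumors. Pdcd1, the gene of PD-1, was at 1.44 to 8.65 FPKM in the same tumors. Eomes, a transcription factor of NK cells and effector T cells, likewise followed Tcf7 (r = 0.97, exact permutation, adjusted p = 0.0038), with 0.423 and 0.249 FPKM in nonresponsive tumor 1 and responsive tumor 1 and 2.50 to 8.80 FPKM in the others. The other 3 NK cell genes tested had r between -0.05 and -0.01.

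Lag3 was at 484 FPKM in PBS tumor 3 and 842 FPKM in responsive tumor 2 and at 4.21 to 13.2 FPKM in the other tumors. Its entry named the neighbouring gene Ptms as well in some tumors, which makes these 2 levels uncertain. Klrb1c, an NK cell receptor whose entry also holds Klrb1b and Gm44511, was at 14.2, 25.9 and 19.9 FPKM in nonresponsive tumors and at 7.78, 3.49 and 6.61 FPKM in responsive tumors (log2 fold change -1.61, limma unadjusted p = 0.0037, adjusted p = 0.84). The B cell receptor chain gene Cd79a was at 47.0, 24.4 and 67.4 FPKM in responsive tumors, at 0, 7.91 and 6.73 FPKM in nonresponsive tumors and at 0.422, 23.6 and 13.1 FPKM in PBS tumors, so that all 3 responsive tumors were above the other 6. Cd79b, its partner chain, was at 0.869 to 85.3 FPKM over the 9 tumors, the NK cell receptor gene Klrd1 at 5.43 to 16.4 FPKM and Id2, a regulator of effector lymphocytes, at 148 to 224 FPKM.

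Among the genes of fetal liver and hepatoma, the imprinted gene Igf2 was higher in all nonresponsive than in all PBS tumors (log2 fold change 1.37, limma unadjusted p = 0.0021, adjusted p = 0.72), and the noncoding RNA H19 lower in all responsive than in all nonresponsive tumors (-1.95, unadjusted p = 0.013, adjusted p = 0.89). Tcf7l2, which encodes the TCF protein best known from intestine, was at 4.78 to 16.0 FPKM, and the ratio of Tcf7 to Tcf7l2, both per length, was 0.983 in nonresponsive tumor 1, 2.99 in responsive tumor 1 and 7.11 to 15.3 in the other tumors.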
